A study of Homo sapiens with 24 samples.

Results

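The proteasome genes are the 48 rows, of 28395 in each deposited count table, whose gene identifier belongs to a protein-coding gene named PSMA, PSMB, PSMC, PSMD, PSME, PSMF or PSMG plus a number. The rule itself uses names and no measured value. The members fall into 8 core alpha, 7 core beta, 6 cap ATPase and 11 cap non-ATPase genes, 6 immunoproteasome genes (PSMB8, PSMB9, PSMB10, PSMB11, PSME1 and PSME2), 7 assembly genes and 3 further regulators (PSME3, PSME4 and PSMF1). They were followed by 3′ RNA sequencing of polyA RNA from the myeloma lines MM1.S and JJN3. Each line was kept for 24 h with vehicle, with CX-5461 (500 nM), with panobinostat (50 nM) or with both drugs at these doses, with 3 libraries in each of the 8 groups. CX-5461 is an inhibitor of RNA polymerase I, and panobinostat is a histone deacetylase inhibitor. The series asked which molecular changes go with the joint response to both drugs. The labels do not say whether the libraries of a group came from separate cultures, so every p-value measures the spread between these libraries, which may be technical. Each group is 1 cell line, so nothing here speaks for myeloma cells of other origin.

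The proteasome is the protease complex that degrades proteins tagged with ubiquitin. Its core is a barrel of alpha rings, which form the gate, around beta rings, which hold the cutting sites, and a cap of ATPases and other subunits recognises, unfolds and feeds in the substrate. Immune signals replace the catalytic beta subunits with inducible ones and add an 11S activator, which gives the immunoproteasome. Plasma cells and myeloma cells make large amounts of secreted protein and depend strongly on the proteasome, which is a drug target in myeloma.

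Libraries held 4751893 to 7305069 counts. Of 9 plasma cell markers all were tested in MM1.S and 8 in JJN3, where CD38 had 0 to 2 counts per library, and their summed CPM (counts per 1000000 counts of the library) were 6124 to 6389 in MM1.S vehicle and 1744 to 1899 in JJN3 vehicle. The T cell and myeloid markers were too low to test in either line, with CD3D at 0 counts in all libraries. The JJN3 libraries numbered replicate 2 stood apart from the other 8 on the second principal component, and the counts of JJN3 members called with panobinostat and with the combination are also given without them. Of the 48 members, MM1.S had 42 with enough counts for a test and JJN3 had 43. The untested members were PSMB3, PSMB7, PSMB8, PSMB9 and PSMB11 in both lines and PSMA8 in MM1.S. A member was called higher or lower at an adjusted p under 0.05 by edgeR's quasi-likelihood test with Benjamini-Hochberg adjustment over all genes tested. Scaling by library size alone in place of TMM moved the median of all genes by 0.137 (log2) for panobinostat and 0.173 for the combination in MM1.S, and by 0.113 for the combination in JJN3. Changes of that size are within what the scaling decides.

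Panobinostat lowered most of the measured proteasome in MM1.S and a smaller set in JJN3. Summed over the 48 members, CPM in MM1.S was 7280 ± 224 (SD, n = 3) with vehicle and 4763 ± 240 with panobinostat. With CX-5461 the sum was 6883 ± 181, and with both drugs 5126 ± 163. In JJN3 the corresponding sums were 6642 ± 562 with vehicle, 6681 ± 494 with CX-5461, 5664 ± 263 with panobinostat and 5859 ± 238 with both. With TMM-scaled library sizes the JJN3 means were 6891, 6657, 5752 and 5620 in that order, so the order of vehicle and CX-5461, and that of panobinostat and both drugs, turned with the scaling. The panobinostat libraries lay below the vehicle libraries without overlap in both lines, with the highest at 5034 against a lowest of 7064 in MM1.S, and 5843 against 5999 in JJN3. These are RNA levels of bulk cultures, in which fewer cells of a type and less RNA per cell cannot be told apart.

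**Figure D1:**
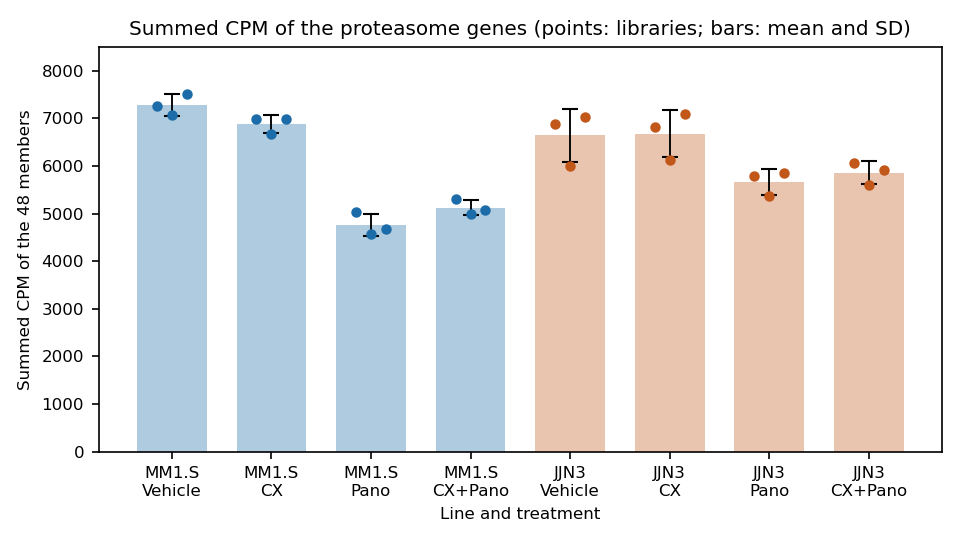
Summed CPM of the 48 proteasome genes (y axis) in each library (points), with bars for group means and whiskers for the SD (n = 3), by line and treatment (x axis). The highest MM1.S library with panobinostat, alone or combined, is at 5311 and the lowest MM1.S vehicle library at 7064, and the JJN3 groups lie closer together.

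Of the 42 members tested in MM1.S, panobinostat lowered 36, against 32.9% of all genes called lower, and raised 1, against 36.9% called higher. The median log2 fold change of the members was -0.75, and that of all genes tested was 0.07. PSMA5, PSMD2, PSMD10, PSME4 and PSMG2 were not called. In JJN3, panobinostat lowered 11 of 43 members, against 10.9% of all genes, and raised none, against 15.0%. The median of the members was -0.20 and that of all genes 0.01. Same-numbered JJN3 libraries deviated together, and with the replicate number as a block 20 JJN3 members were lower and 2 higher, against 19.5% and 22.4% of all genes. The 9 lower members that the block added were PSMA3, PSMB2, PSMB4, PSMC3, PSMC5, PSMD5, PSMD7, PSMD9 and PSME3 (adjusted p 0.00159 to 0.0487). All 11 members called lower in JJN3 were also called lower in MM1.S. Without replicate 2, 12 JJN3 members were called lower, against 1297 of 11633 genes. Leaving out panobinostat replicate 1 in MM1.S raised the count of higher members there to 2. By library size alone PSMA2, PSMB1, PSMC4, PSMC6, PSMD4 and PSMF1 lost their MM1.S calls, with changes from -0.32 for PSMC6 to -0.14 for PSMA2. The PSMA2 call (-0.27) was also lost without vehicle replicates 1 or 3 (adjusted p = 0.0605 and 0.106).

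Plasma cell markers fell in the same libraries. With panobinostat 8 of the 9 were lower in MM1.S, where their summed CPM was 514 to 753, and 5 of the 8 tested were lower in JJN3, where it was 1088 to 1235. Their part in the proteasome result was not tested. Of the 3 epithelial markers, 1 was tested in MM1.S and rose (summed CPM of the list 0 to 1.12 with vehicle and 1.65 to 5.78 with panobinostat). In JJN3 2 were tested and 1 fell (13.2 to 14.8 with vehicle and 7.70 to 12.7 with panobinostat), and KRT8 had at most 1 count in any library.

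**Figure D2:**
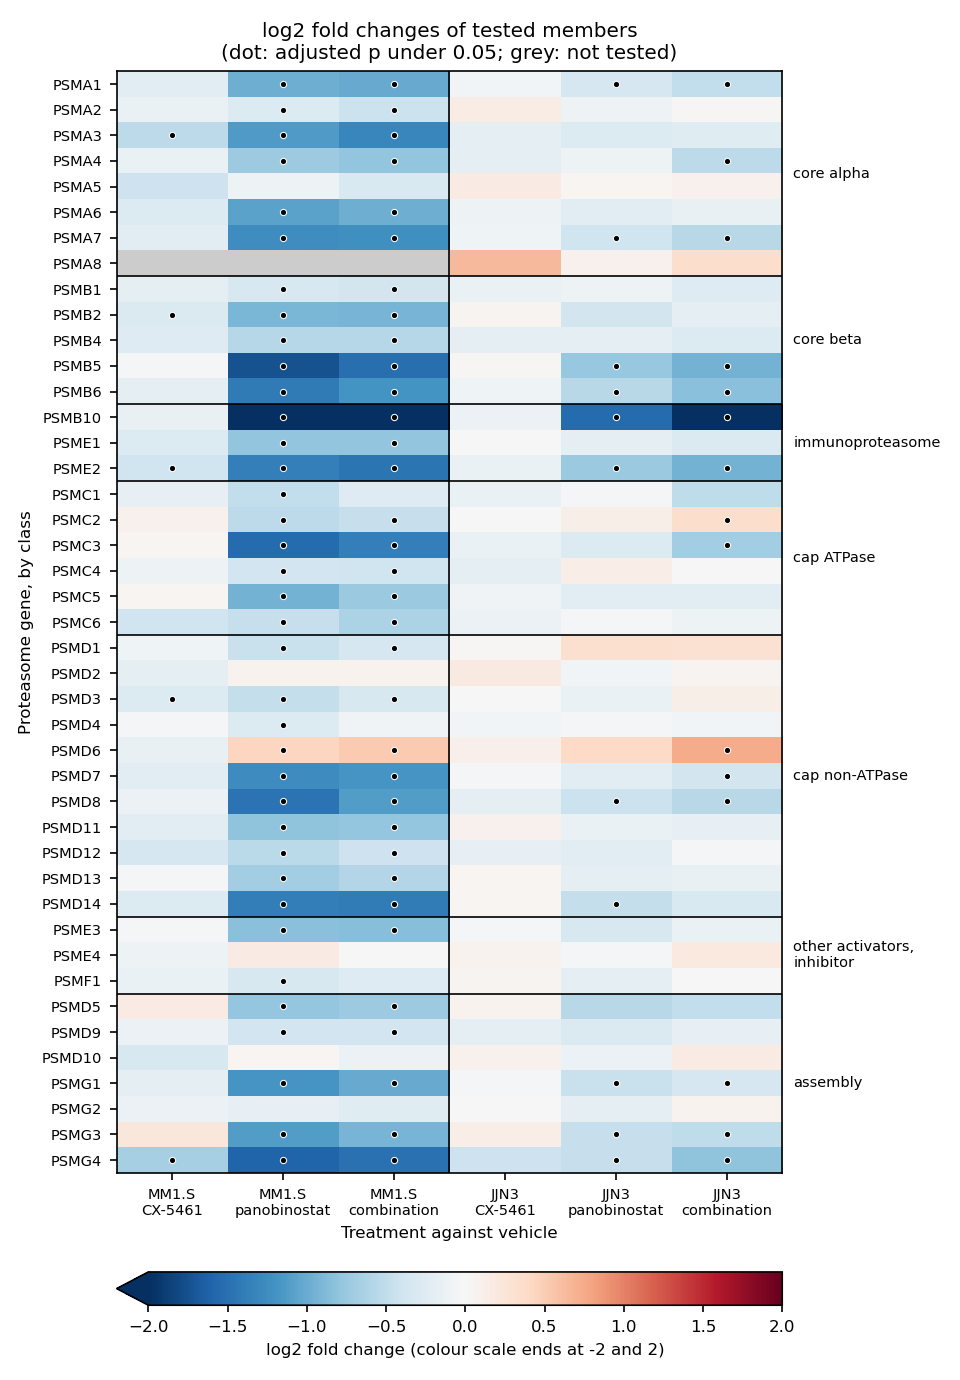
Colours give the log2 fold change of each tested member (y axis, by class) for each treatment against vehicle in MM1.S and JJN3 (x axis); dots mark an adjusted p under 0.05 and grey cells were not tested. The MM1.S panobinostat column carries 36 dots on lower members and 1 on a higher member, PSMD6, and the JJN3 CX-5461 column carries none.

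Promoters of 3 members on which the results turn are printed here: PSMB10, the member with the largest fall in both lines, PSME2, which belongs to the same inducible set, and PSMD6, the member that rose. Each is the 250 bases before the gene's start on its own strand, from the RefSeq annotation of GRCh38.p14, and capitals mark the motif matches named below.
PSMB10: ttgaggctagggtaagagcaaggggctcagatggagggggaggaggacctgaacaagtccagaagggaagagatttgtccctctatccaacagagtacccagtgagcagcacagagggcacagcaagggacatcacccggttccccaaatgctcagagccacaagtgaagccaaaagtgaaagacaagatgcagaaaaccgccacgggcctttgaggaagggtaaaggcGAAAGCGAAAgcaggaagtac
PSME2: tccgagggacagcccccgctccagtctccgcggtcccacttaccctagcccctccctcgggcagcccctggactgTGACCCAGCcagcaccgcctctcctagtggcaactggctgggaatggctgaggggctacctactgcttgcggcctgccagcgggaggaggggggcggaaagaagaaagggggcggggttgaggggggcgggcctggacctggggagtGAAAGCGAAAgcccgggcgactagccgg
PSMD6: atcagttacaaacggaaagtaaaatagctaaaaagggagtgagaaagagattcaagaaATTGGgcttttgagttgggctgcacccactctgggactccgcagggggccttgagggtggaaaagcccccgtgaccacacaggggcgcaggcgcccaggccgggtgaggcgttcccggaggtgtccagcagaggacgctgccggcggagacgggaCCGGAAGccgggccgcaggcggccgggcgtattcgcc

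The 4 motifs below were searched on both strands of such windows, which were at hand for 42 of the 48 members and for 15843 protein-coding genes. The core of the element bound by interferon regulatory factors, GAAA followed after any 2 bases by GAAA again, was in the windows of 5 members (11.9%; PSMA4, PSMB4, PSMB10, PSME2 and PSMG4) and of 3.6% of all genes. PSMB10 and PSME2 share the letters GAAAGCGAAA, which start 21 and 28 bases before the gene's start. TGACNNNGC, the core of the antioxidant response element to which NFE2L1 binds, was in 13 members (31.0%) and 14.7% of all genes, and in PSME2 it starts 175 bases before the start. CCAAT, the box of the factor NF-Y, was in 19 members (45.2%) and 40.2% of all genes. CCGGAAG, a core of ETS factor sites, was in 11 members (26.2%) and 14.0% of all genes. PSMD6 holds ATTGG, the reverse complement of CCAAT, 192 bases before its start and CCGGAAG 37 bases before it. A match is a description of the letters, not of a bound factor.

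The core beta genes PSMB5 and PSMB6, which encode 2 of the 3 constitutive cutting subunits, fell in both lines. PSMB5, the chymotrypsin-like subunit that myeloma drugs inhibit, had 153.5, 136 and 150 CPM in the MM1.S vehicle libraries and 46.6, 46.7 and 50.5 with panobinostat. In JJN3 it had 124, 127 and 142.5 CPM with vehicle and 71.1, 86.5 and 80.6 with panobinostat. In neither line did the 2 groups overlap. The log2 fold change of PSMB5 was -1.75 (SE 0.11, adjusted p = 2.06e-13) in MM1.S and -0.76 (SE 0.12, adjusted p = 0.000172) in JJN3. PSMB6, the caspase-like subunit, had 250, 210 and 228 CPM in MM1.S with vehicle and 102, 84.1 and 98.7 with panobinostat. Its JJN3 libraries read 251.5, 181 and 253 CPM with vehicle and 158, 152 and 165 with panobinostat, so that replicate 2 of the vehicle group was the lowest and still above every treated library. PSMB6 changed by -1.41 (SE 0.12) in MM1.S and by -0.56 (SE 0.15, adjusted p = 0.0126) in JJN3, and in JJN3 the call was lost without vehicle replicate 1 (-0.47, adjusted p = 0.0569). The JJN3 call of PSMB6 held with the replicate block (adjusted p = 2.42e-05). All 5 tested core beta genes were lower in MM1.S, from -0.33 for PSMB1 to -1.75 for PSMB5, and 2 were lower in JJN3. PSMB2, a structural beta subunit, changed by -0.92 in MM1.S. In JJN3 it gave -0.37 with adjusted p = 0.0527, and adjusted p = 0.00159 with the replicate block and 0.0205 (-0.42) without the replicate 2 libraries. PSMB1 in MM1.S was called with overlapping groups, and its call was lost without panobinostat replicate 2 (adjusted p = 0.0706).

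Of the core alpha genes, which form the gated outer rings, 6 of the 7 tested were lower with panobinostat in MM1.S and 2 of the 8 tested in JJN3. PSMA7 fell from 641, 613.5 and 618 CPM to 318, 278 and 278 in MM1.S, a log2 fold change of -1.23 (SE 0.10). In JJN3 it was at 670.0, 469.9 and 649.6 CPM with vehicle and 483, 433 and 476.5 with panobinostat, and vehicle replicate 2 lay within the treated range. PSMA7 was called in JJN3 at -0.39 (adjusted p = 0.0481), a call that was lost without any 1 of 5 libraries (adjusted p from 0.0605 to 0.193, all but vehicle replicate 2) and held with the block (adjusted p = 0.000491). PSMA3, PSMA6 and PSMA1 changed by -1.13, -1.07 and -0.98 in MM1.S. PSMA1 was lower in JJN3 as well, at -0.34 (adjusted p = 0.0401), and lost its call without vehicle replicates 1 or 2 or panobinostat replicates 1 or 3 (adjusted p 0.0768 to 0.145). The JJN3 call of PSMA1 held with the block (adjusted p = 0.00386). PSMA5 was not called in either line. PSMA7 has a close paralog, PSMA8, and PSMA3 an antisense neighbour in the tables, PSMA3-AS1, with 153 to 304 counts in MM1.S and 70 to 136 in JJN3. The strand setting of the counting is not given, so reads of PSMA3 and PSMA3-AS1 cannot be told apart where they overlap. PSMA8 had 16 counts over all MM1.S libraries, where PSMA7 had 31896.

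PSMB10, which encodes the inducible subunit that replaces PSMB7, fell more than any other member in both lines. Its CPM was 241, 236.5 and 236 in MM1.S with vehicle and 21.1, 16.9 and 17.5 with panobinostat, 14.1-fold lower (log2 fold change -3.82, SE 0.12, adjusted p = 1.12e-18). The JJN3 libraries held 327, 282 and 337 CPM with vehicle and 96.3, 139.5 and 97.4 with panobinostat, 2.90-fold lower (-1.54, SE 0.16, adjusted p = 5.40e-06). The groups lay far apart in both lines. PSME1 and PSME2 encode the alpha and beta chains of the 11S activator that docks on the core in place of the cap. PSME2 fell from 99.95, 77.35 and 97.15 CPM to 42.25, 37.2 and 37.7 in MM1.S (-1.37, SE 0.13). In JJN3 it went from 98.4, 75.85 and 109.6 CPM to 55.05, 54.3 and 65.1 (-0.73, SE 0.14, adjusted p = 0.00135). The groups did not overlap in either line. PSME1 was lower in MM1.S (-0.79, SE 0.11). It was not called in JJN3, although its 3 treated libraries (104 to 107 CPM) lay below the vehicle ones (114 to 120 CPM). PSMB8 and PSMB9, the other inducible cutting subunits, and PSMB11, the thymus-specific one, had at most 2 counts in all libraries of a line and gave no test.

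**Figure D3:**
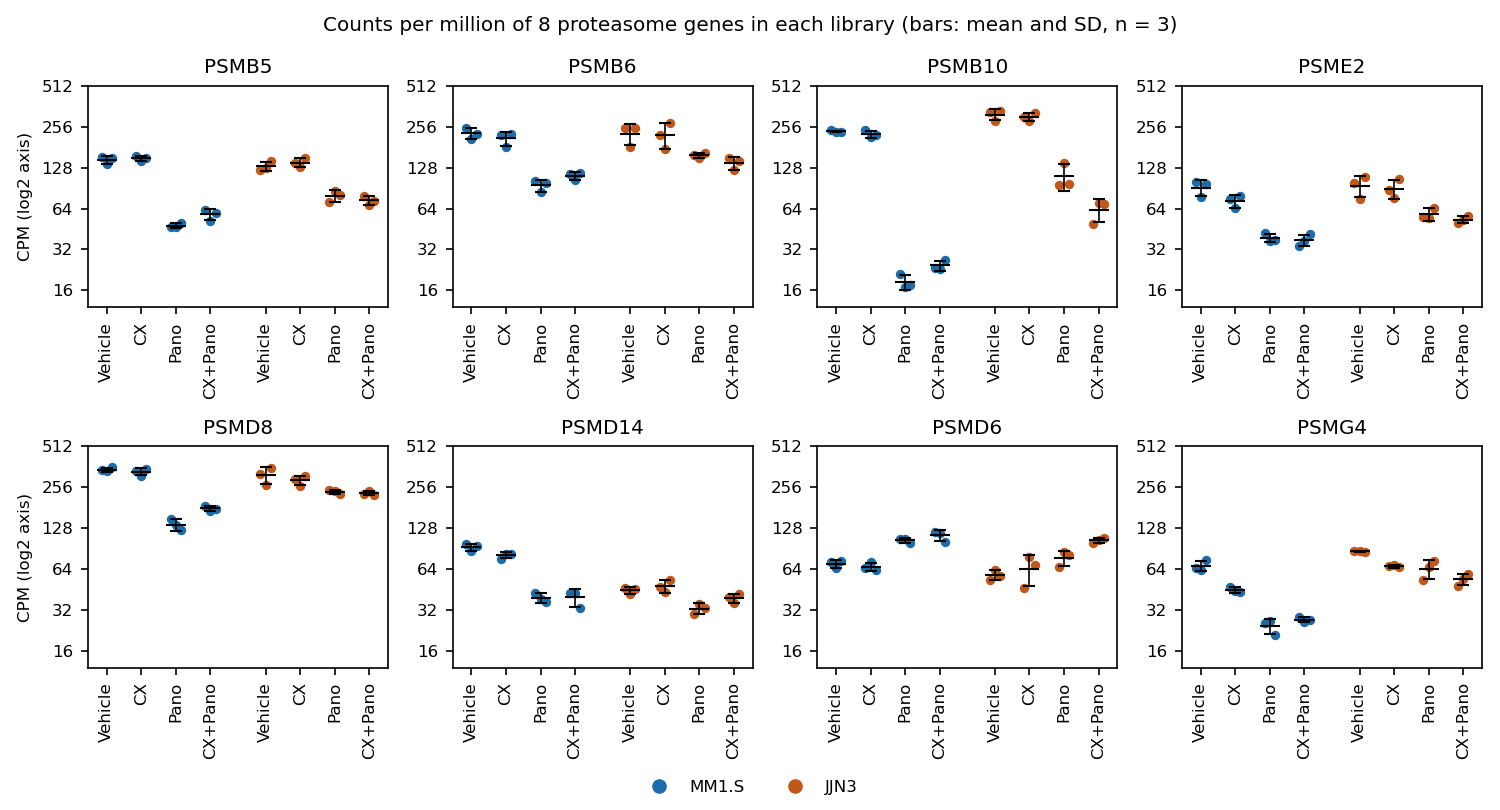
CPM (y axis, log2 scale) of 8 proteasome genes in each library (points) of the 8 groups (x axis), with group means and SD (n = 3) as black bars. PSMB10 is at 236 CPM or more in the MM1.S vehicle libraries and at 26.8 or less with panobinostat, alone or combined, whereas PSMD6 is higher in the panobinostat groups than in the vehicle group of each line.

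Among the cap ATPases, the ring that unfolds substrates, all 6 were lower in MM1.S with panobinostat and none was called in JJN3. PSMC3 had the largest fall, from 249, 247 and 250 CPM to 112, 80.1 and 90.01 in MM1.S (-1.54, SE 0.12). In JJN3 it read 136, 92.0 and 126 CPM with vehicle and 98.1, 89.4 and 112 with panobinostat, overlapping groups (-0.28, adjusted p = 0.244, and 0.0321 with the block). The other MM1.S ATPase changes ran from -0.38 for PSMC4 to -0.94 for PSMC5. The calls of PSMC4 (adjusted p = 0.0987 without panobinostat replicate 2, and 0.0501 without replicate 3) and PSMC6 (adjusted p = 0.08004 without vehicle replicate 1) each rested on single libraries.

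Of the 11 cap non-ATPase genes, panobinostat lowered 9 and raised 1 in MM1.S and lowered 2 in JJN3. PSMD14, the deubiquitinase that removes the ubiquitin chain at the cap, was at 96.9, 86.3 and 94.1 CPM in MM1.S with vehicle and at 42.85, 38.3 and 36.4 with panobinostat (-1.38, SE 0.12). In JJN3 it went from 46.3, 41.9 and 45.2 CPM to 29.5, 35.35 and 33.1 (-0.48, adjusted p = 0.0124), without overlap, and the call was lost without panobinostat replicate 1 (adjusted p = 0.0518). With the block the call held (adjusted p = 0.00143). PSMD8, a scaffold subunit of the lid, fell by 1.48 (log2) in MM1.S and by 0.43 in JJN3. The JJN3 call of PSMD8 (adjusted p = 0.0130) was lost without vehicle replicate 3 (0.0653) or panobinostat replicate 3 (0.0582), and held with the block (0.000297). PSMD4, a ubiquitin receptor, was called lower in MM1.S (-0.28) with overlapping groups, a call lost without panobinostat replicate 2 (adjusted p = 0.0656).

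PSMD6, a lid subunit, moved the other way. It was at 72.5, 64.7 and 72.9 CPM in MM1.S with vehicle and at 106, 106.5 and 98.85 with panobinostat (0.43, SE 0.10, adjusted p = 0.000605). The JJN3 libraries held 53.2, 62.65 and 56.8 CPM with vehicle and 66.0, 84.8 and 81.15 with panobinostat, all above the vehicle ones, with a log2 fold change of 0.39 (adjusted p = 0.0776, and 0.00492 with the block). With both drugs PSMD6 read 119.5, 118 and 102 CPM in MM1.S (0.52, SE 0.10) and 99.05, 104 and 108 in JJN3 (0.74, SE 0.16, adjusted p = 0.00135). It was called higher with the combination in both lines. The antisense gene PSMD6-AS2 had at most 35 counts in any library. The second member higher in JJN3 with the block was PSMD1, the largest cap scaffold, at 0.32, which in MM1.S was lower (-0.44).

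The assembly genes encode chaperones that build the core and cap, and 5 of 7 were lower with panobinostat in MM1.S. PSMG4, part of a core chaperone pair with PSMG3, fell from 65.5, 62.7 and 74.0 CPM to 25.5, 26.6 and 20.8 (-1.61, SE 0.12). In JJN3 it went from 87.05, 86.2 and 84.6 CPM to 52.6, 66.1 and 72.9 (-0.47, adjusted p = 0.0120), without overlap, and the call was lost without panobinostat replicate 1 (adjusted p = 0.0649). With the block the call held (adjusted p = 0.000598). PSMG3 changed by -1.12 (SE 0.10) in MM1.S and -0.46 (SE 0.11, adjusted p = 0.00457) in JJN3. PSMG1, a core chaperone, changed by -1.18 (SE 0.12) and -0.44 (SE 0.12, adjusted p = 0.0110). Without the replicate block these 3 were the assembly genes called lower in JJN3, and with it PSMD5 (-0.54, adjusted p = 0.0124) and PSMD9 (-0.29, adjusted p = 0.0154) were lower too. The cap chaperones PSMD5 (-0.77) and PSMD9 (-0.39) were lower in MM1.S, and neither PSMD10 nor PSMG2 was called there. PSME3, a nuclear 11S activator, was lower in MM1.S (-0.83, SE 0.12). PSME4, an activator linked to chromatin, was not called in either line. PSMF1, an inhibitor of the core, was called lower in MM1.S (-0.32) with overlapping groups, a call lost without vehicle replicates 1 or 3 or panobinostat replicates 2 or 3 (adjusted p 0.0578 to 0.0925).

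CX-5461 alone gave few calls among the members. In MM1.S it lowered 5, against 7.06% of all genes, and raised none, against 9.68%. The median of the members was -0.18 and that of all genes 0.01, and by library size alone -0.11 and 0.08. Of the 42 members 37 were below 0, and 16 had an unadjusted p under 0.05 by edgeR, against 3621 of 12030 genes. The 5 were PSMG4 (-0.66, SE 0.11), PSMA3 (-0.52, SE 0.10), PSME2 (-0.40, SE 0.12), PSMB2 (-0.29, SE 0.09) and PSMD3 (-0.27, SE 0.09). PSMG4 read 47.1, 44.3 and 43.0 CPM with CX-5461, and PSMA3 read 68.4, 78.7 and 72.1 against 102, 91.0 and 105 with vehicle, both below every vehicle library. PSMG4 and PSMA3 held their calls when any 1 library was left out. The count fell to 2 without vehicle replicate 3 or CX-5461 replicate 2, and to 3 without vehicle replicate 1, CX-5461 replicate 1 or CX-5461 replicate 3. PSMB2 and PSMD3 each lost their calls without any of 5 libraries, and PSME2 without vehicle replicates 1 or 3 or CX-5461 replicate 2. With the replicate block 11 were lower, against 1140 of 12030 genes, and none higher, against 1413. By library size alone 3 were lower, against 509 of 12030 genes, and 1, PSMG3, was higher, against 1544. The treated PSMG3 libraries (165 to 180 CPM) lay above the vehicle ones (134 to 146 CPM). Of the plasma cell markers, 4 of 9 were lower with CX-5461 in MM1.S, with a summed CPM of 5191 to 5522, and their part in the result was not tested.

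In JJN3, CX-5461 gave no call by edgeR among the members or among all genes (0%). An unadjusted p under 0.05 by edgeR was found for 2 members, against 633 of 11411 genes. DESeq2 called no member, against 3 genes higher and 15 lower of 7111. With the replicate block 1 member was lower, against 0.771% of all genes, and none higher, against 0.605%. It was PSMG4, with 67.2, 68.9 and 65.5 CPM, below all 3 vehicle libraries (-0.41, adjusted p = 0.637, and 0.0377 with the block). PSMG4 was the member with the largest fall under CX-5461 in both lines.

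Adding CX-5461 to panobinostat left the members near their panobinostat levels in MM1.S. Against vehicle the combination lowered 33 of 42 members there, against 33.2% of all genes, and raised 1, against 37.0%, with a median of -0.73. PSMB10 was at 23.5, 22.8 and 26.8 CPM (-3.46, SE 0.12), PSMB5 at 63.0, 52.2 and 59.05 (-1.51, SE 0.10) and PSME2 at 34.2, 37.2 and 41.3 (-1.46, SE 0.13). Against panobinostat alone 1 member was higher, against 2.44% of all genes, and none lower, against 1.65%. There 4 members had an unadjusted p under 0.05 by edgeR, against 2244 of 12030 genes. Changes of the members in that contrast ran from -0.20 to 0.36. The member called was PSMD8, at 187, 172 and 177.5 CPM with both drugs and 149.5, 134 and 123 with panobinostat (0.36, SE 0.10, adjusted p = 0.0422). Its call was lost without any 1 of 5 of these 6 libraries (adjusted p 0.0505 to 0.230), and without panobinostat replicate 1 the count rose to 3. PSMB10 was higher in all 3 libraries, by 0.36 (SE 0.13), and was not called (adjusted p = 0.124, and 0.0247 without panobinostat replicate 1). Against CX-5461 alone the combination lowered 29 members, against 33.9% of all genes, and raised 1 (PSMD6, 0.67), against 35.9%, a count that was 2 without combination replicate 3. The largest falls there were those of PSMB10 (-3.31), PSMB5 (-1.47) and PSMC3 (-1.40).

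Departure from additivity, what is left of the combination's log2 change once those of both single drugs are taken off, was above 0 for most members in MM1.S: the median was 0.23 against -0.02 for all genes, and 6 of 42 were below 0. It was called above 0 for 2, PSMG4 (0.78, SE 0.17, adjusted p = 0.00726) and PSMD8 (0.49, SE 0.14, adjusted p = 0.0409), against 1.87% of all genes, and below 0 for none, against 3.65%. PSMD8 lost its call without any 1 of 10 of the 12 libraries (adjusted p 0.0503 to 0.131), all but CX-5461 replicate 3 and panobinostat replicate 1. Without panobinostat replicate 1 the count was 5. The 3 vehicle libraries enter this sum and each comparison with vehicle.

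In JJN3 the combination lowered 13 members, against 18.2% of all genes, and raised 2, PSMD6 and PSMC2, against 21.0%. With the replicate block 21 were lower and 3 higher, against 25.9% and 27.6%. PSMB10 was at 49.0, 70.6 and 69.1 CPM (-2.44, SE 0.16, adjusted p = 2.56e-08), below all 3 libraries given panobinostat alone. PSMB5 was at 79.8, 68.4 and 72.2 CPM (-0.95, SE 0.12), PSME2 at 50.2, 52.6 and 56.6 (-0.95, SE 0.14) and PSMB6 at 150, 123 and 143 (-0.83, SE 0.15). PSMG4 changed by -0.80 (SE 0.13) and PSMC3 by -0.69 (SE 0.17, adjusted p = 0.00365). PSMC2, a cap ATPase, was at 72.0, 74.4 and 75.6 CPM against 57.7, 51.4 and 51.0 with vehicle (0.36, SE 0.13, adjusted p = 0.0422). It lost its call without vehicle replicates 2 or 3 or any 1 combination library (adjusted p 0.0808 to 0.142), and without all replicate 2 libraries (0.165), and then 1 member was higher. With the block the PSMC2 call held (adjusted p = 0.00606). Without all replicate 2 libraries 17 members were lower, against 2041 of 11633 genes, and 1 was higher, against 2399. All 13 lower members were also lower with the combination in MM1.S. PSMD14 was not called with the combination in JJN3 (-0.30, adjusted p = 0.0721, and 0.0267 with the block). Of 8 plasma cell markers tested, 6 were lower and 1 higher, with a summed CPM of 719 to 846, and their part in the result was not tested.

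Against panobinostat alone, the combination in JJN3 lowered 1 member, PSMB10 (-0.91, SE 0.16, adjusted p = 0.0114), against 0.719% of all genes, and raised none, against 0.184%. The PSMB10 call was lost without panobinostat replicate 2 (-0.72, adjusted p = 0.0827) or combination replicate 1 (-0.76, adjusted p = 0.111). It held with the block (adjusted p = 0.00162). With the block 6 were lower and 2 higher, against 6.48% and 5.78%: PSMA4, PSMB6, PSMB10, PSMC1, PSMC3 and PSMG4 lower, PSMD3 and PSMD6 higher. Against CX-5461 alone 14 were lower, against 15.6%, and 1, PSMD6, was higher (0.64), against 18.8%. The lower count was 9 without CX-5461 replicate 1 and 8 without CX-5461 replicate 3 or combination replicate 3. The higher count was 2 without CX-5461 replicate 1, and with the block 3 were higher, against 25.8%, and 19 lower, against 23.2%. The largest falls were those of PSMB10 (-2.33), PSMB5 (-0.98) and PSME2 (-0.81). Departure from additivity gave no call in JJN3 among members or all genes (0%), with 1 member at an unadjusted p under 0.05 and none called by DESeq2. With the block it gave none among the members, against 0.123% of all genes above 0 and 0.797% below, and 3 members at an unadjusted p under 0.05. For PSMB10 it was -0.79 (SE 0.22, adjusted p = 0.570, and 0.105 with the block).

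With vehicle the lines differed in 22 members: 8 were higher in JJN3, against 30.2% of all genes, and 14 lower, against 33.5%. Neither count was above the share of all genes. Of the cap genes 9 were lower and 1 higher in JJN3, led by PSMD2 (-1.40, SE 0.14), the other large cap scaffold, PSMC3 (-1.11, SE 0.15) and PSMD14 (-1.10, SE 0.12). PSMD2 read 270, 257 and 298 CPM in MM1.S and 117, 88.0 and 116 in JJN3, far from overlap. The lines came as separate tables, so line and any separate handling cannot be told apart in this comparison. Higher in JJN3 were PSMG2 (1.03, SE 0.14) and PSMG3 (0.70, SE 0.10), chaperones of the core, and PSMA5 (1.03, SE 0.18), an alpha subunit. PSMB10 was 0.37 higher in JJN3 (SE 0.13, adjusted p = 0.0160), and PSMB6 was not called. PSMB5 was not called at -0.20 (adjusted p = 0.0997, and 0.0445 with the replicate block). PSMA8, an alpha subunit known from testis, had 192 counts in the 3 JJN3 vehicle libraries and 1 in those of MM1.S, a ratio of 189 with a 95% counting interval of 33.5 to 7498. The PSMA8 counts were 37 to 122 in every JJN3 library and at most 4 in every MM1.S library. It is 1 of the 8 members counted as higher and entered the joint fit through the JJN3 libraries alone, so that its place in that count is no support for a difference. Without the JJN3 replicate 2 libraries 11 members were higher and 12 lower, against 4088 and 4007 of 13253 genes. By library size alone 10 were higher and 12 lower, against 4050 and 4130 of 12872 genes.

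The panobinostat effect differed between the lines in 25 of the 42 members tested in both, tested as the JJN3 effect minus the MM1.S effect in 1 fit of all 24 libraries. The difference was above 0 for all 25, against 18.9% of all genes above 0 and 14.4% below. The MM1.S effect is taken off in this difference, and 36 of the 42 members were called lower in MM1.S. The shares of all genes take genes lowered and raised in MM1.S together, so they are no measure for the shared sign. The median of the members was 0.57 and that of all genes 0.03. PSMB10 differed by 2.30 (SE 0.20, adjusted p = 2.78e-10), PSMC3 by 1.28 (SE 0.22), PSMG4 by 1.16 (SE 0.17), PSMD8 by 1.06 (SE 0.16) and PSMB5 by 1.01 (SE 0.16). PSMA8 also entered this fit through JJN3 alone, and no difference is given for it, since its MM1.S counts lie at or near the floor of 3. Of the 25 calls 18 held without any 1 of the 12 libraries and without all JJN3 replicate 2 libraries, and 7 were lost in at least 1 of these settings. PSMC4 lost its call without any 1 of 9 libraries (adjusted p 0.0511 to 0.219), PSME3 of 8 (0.0603 to 0.189), PSMD1 of 6 (0.0546 to 0.0852) and PSMD13 of 4 (0.0557 to 0.102). PSME2 differed by 0.65 (SE 0.20, adjusted p = 0.0116). Its call was lost without MM1.S vehicle replicate 1, MM1.S panobinostat replicates 2 or 3, JJN3 vehicle replicate 2, JJN3 panobinostat replicate 3, or all JJN3 replicate 2 libraries (adjusted p 0.0552 to 0.0714).

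Over the 42 members tested in both lines, the panobinostat log2 fold change had the same sign in 35 and was larger in size in MM1.S in 40. Across these members, which share libraries and are not independent, Pearson's r between the lines was 0.876 and Spearman's rho 0.824, and without PSMB10 r was 0.780. The lines share no control library. Panobinostat also changed more of all genes in MM1.S (36.9% called higher and 32.9% lower) than in JJN3 (15.0% and 10.9%). These sign and size counts and correlations were not computed over all genes, so they do not set the members apart from other genes.

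**Figure D4:**
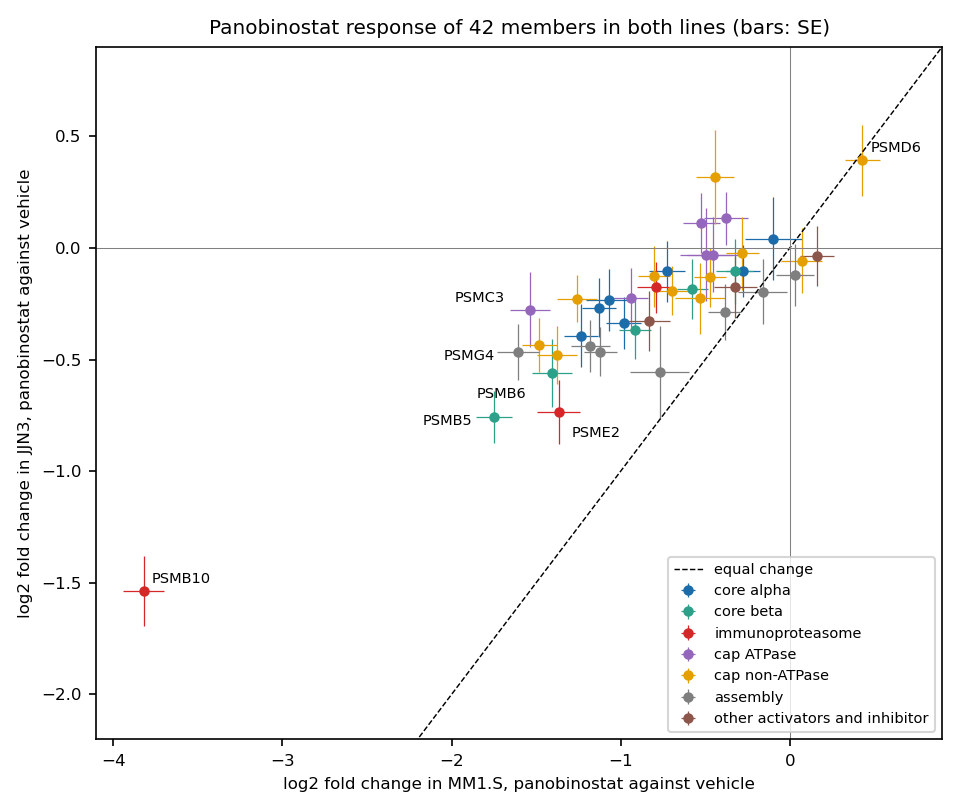
Log2 fold change with panobinostat in MM1.S (x axis) against JJN3 (y axis) for the 42 members tested in both, coloured by class, with SE bars and a dashed line of equal change. Most members lie above the line on the left, less lowered in JJN3, with PSMB10 at -3.82 and -1.54 and PSMD6 at 0.43 and 0.39.

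The combination effect differed between the lines in 24 members, all with the JJN3 effect above the MM1.S effect, against 18.8% of all genes above 0 and 14.0% below. The limit on the shared sign holds here too, with 33 of 42 members called lower in MM1.S. PSMD14 differed by 1.12 (SE 0.17), PSMA3 by 1.07 (SE 0.16) and PSMB10 by 1.03 (SE 0.20, adjusted p = 0.000171). Without JJN3 vehicle replicate 2 the count was 15. Of the 24 calls 12 held without any 1 of the 12 libraries and without all JJN3 replicate 2 libraries. PSMD13 lost its call without any 1 of 11 libraries (adjusted p 0.0519 to 0.136), and PSMD1 (0.0727 to 0.192), PSMD3 (0.0633 to 0.143) and PSME2 (0.0540 to 0.208) without any 1 of 9. The CX-5461 effect gave no difference among the members, against 0.287% of all genes above 0 and 1.03% below. An unadjusted p under 0.05 by edgeR was found for 4 members, against 1422 of 12872 genes. DESeq2 called no member, against 64 genes above 0 and 176 below of 11261.

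The 4 beta genes PSMB3, PSMB7, PSMB8 and PSMB9 were at or near 0 in both lines, as were most of the rows around PSMB8, PSMB9 and PSMB3 but not those around PSMB7. PSMB3 and PSMB7 encode constitutive beta subunits that every core holds, PSMB7 being the trypsin-like cutting subunit. PSMB7 had 31 counts over the 12 MM1.S libraries and 31 over those of JJN3. PSMB3 had 143 in MM1.S, of which 105 in vehicle replicate 1, and 121 in JJN3, of which 64 in panobinostat replicate 3. PSMB8 had 0 and 1 counts, PSMB9 had 2 and 2, and PSMB11 had 0 and 1. For PSMB8 and PSMB9 this is under the floor of 3 counts. Among the 40 nearest protein-coding rows of PSMB8, by order on the chromosome in RefSeq, 35 had a median count over all libraries of at most 3.5, and 34 of 40 for PSMB9. For PSMB3 it was 28 of 40 and for PSMB7 15 of 40, against 41.1% of the 19175 protein-coding rows. Genes that every cell uses were among the near-0 rows: RPS18, a ribosomal protein gene of the same chromosome region as PSMB8 and PSMB9, had 0 to 25 counts. TAP1, the peptide transporter gene between PSMB8 and PSMB9, had 0 in all libraries. So an absence of the inducible subunits PSMB8 and PSMB9, or of PSMB3 and PSMB7, cannot be read from these tables, and the cause of the low counts was not tested.

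**Figure D5:**
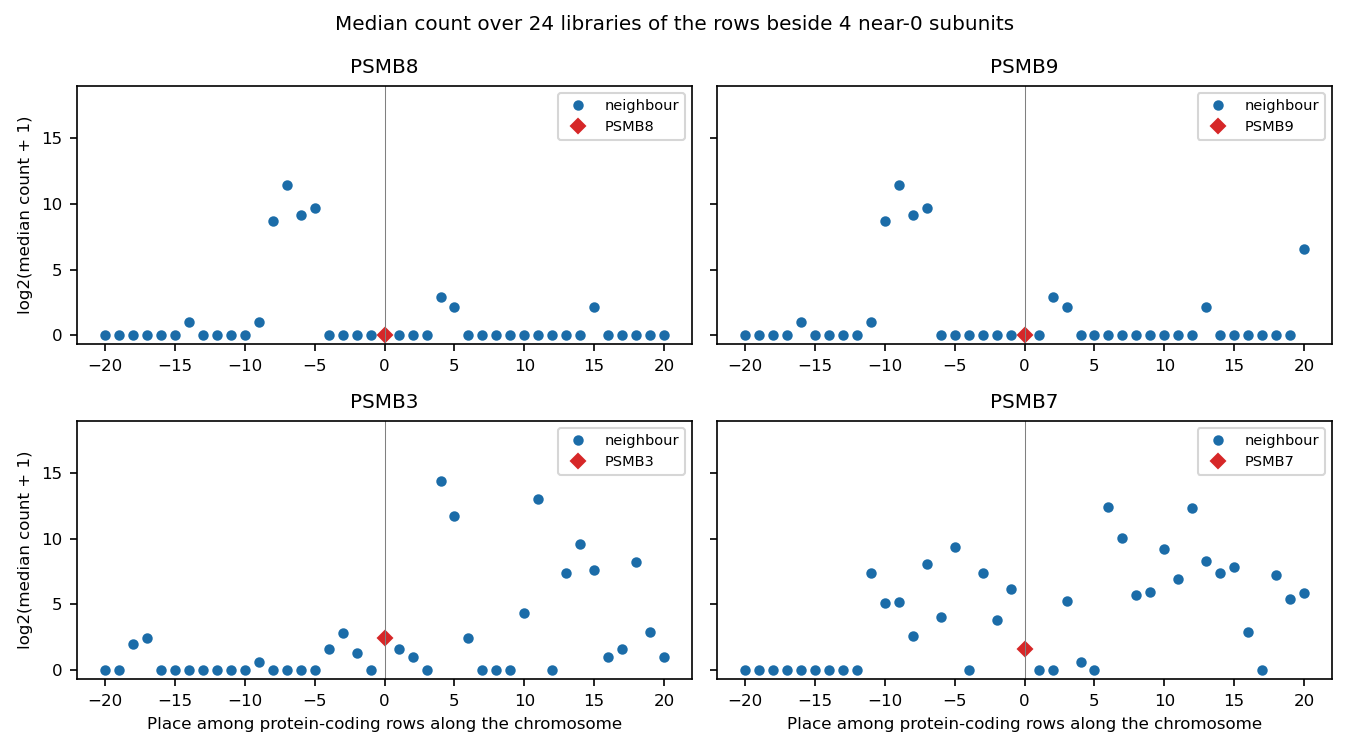
Log2 of the median count plus 1 over the 24 libraries (y axis) for the 20 protein-coding rows on each side (x axis, order along the chromosome) of PSMB8, PSMB9, PSMB3 and PSMB7 (red). Of the 40 neighbours of PSMB8, 35 have a median of at most 3.5, against 15 of 40 beside PSMB7.

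Genes that work with the proteasome moved in both directions. Of a list of 37 (bound and assembly factors, transcription factors and their processing, shuttles, ubiquitin genes, and inducers and partners of the immunoproteasome), 33 were tested in each line. Panobinostat lowered 17 and raised 5 in MM1.S, against 32.9% and 36.9% of all genes, and lowered 4 and raised 1 in JJN3, against 10.9% and 15.0%. The combination lowered 19 and raised 6 in MM1.S, against 33.2% and 37.0%, and lowered 7 and raised 3 in JJN3, against 18.2% and 21.0%. CX-5461 lowered 10 and raised 4 in MM1.S, against 7.06% and 9.68%, and called none in JJN3. NFE2L1, the transcription factor that raises proteasome genes when proteasome activity is short, was higher with CX-5461 in MM1.S and lower with panobinostat. Its CPM there was 130, 186 and 136 with vehicle, 231, 261 and 223 with CX-5461 (0.59, SE 0.12) and 81.3, 83.8 and 89.2 with panobinostat (-0.96, SE 0.12), with no overlap with vehicle in either case. In JJN3, NFE2L1 went from 135, 187 and 147 CPM to 90.7, 99.75 and 94.3 with panobinostat (-0.75, SE 0.15, adjusted p = 0.00129) and changed by -0.87 with the combination.

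NLRC5, the transactivator of class I antigen presentation genes, was higher in MM1.S with panobinostat (1.11, SE 0.28), CX-5461 (1.25, SE 0.27) and both (1.40, SE 0.27), at levels of 3.21 to 12.2 CPM. In JJN3 its mean was 41.0 CPM with vehicle, 53.2 with CX-5461, 26.3 with panobinostat and 29.9 with both. The libraries of each treated JJN3 group overlapped those with vehicle. The largest fall of the list was that of ECPAS, an adaptor that holds proteasomes at other structures: -3.01 (SE 0.13) in MM1.S and -1.15 (SE 0.15, adjusted p = 4.61e-05) in JJN3 with panobinostat, and -3.34 and -1.67 with both drugs. VCP, the ATPase that extracts ubiquitinated proteins, changed by -1.21 (SE 0.09) with panobinostat and -1.39 with both in MM1.S. ADRM1, a ubiquitin receptor of the cap, changed by -0.90 and -0.99 in MM1.S and was not called in JJN3. POMP, the maturation factor of the core, changed by -0.25 with panobinostat and -0.28 with both in MM1.S, and its panobinostat call was lost without vehicle replicate 1 or panobinostat replicate 2. Under CX-5461 in MM1.S the largest falls of the list were those of RAD23B, a shuttle for ubiquitinated proteins (-0.59, SE 0.10), and AKIRIN2, a factor for nuclear import of proteasomes (-0.52, SE 0.16). The AKIRIN2 call was lost without vehicle replicates 2 or 3 or CX-5461 replicates 1 or 3 (adjusted p 0.0751 to 0.123). UBB, a polyubiquitin gene, was higher with panobinostat in MM1.S (0.26) and JJN3 (0.38), and with both drugs (0.28 and 0.56). UBB lost its panobinostat calls without any 1 of several libraries (adjusted p 0.0564 to 0.269 in MM1.S and 0.0603 to 0.194 in JJN3, and 0.0536 there without the replicate 2 libraries), and its combination call in MM1.S likewise (0.0805 to 0.145). NGLY1, an enzyme that NFE2L1 needs to become active, was higher with the combination in JJN3 (0.59, SE 0.16), a call lost without combination replicate 1 (adjusted p = 0.0545). UBB shares repeated ubiquitin sequence with other genes, so its split of reads is uncertain.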

How the data were processed

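RNA of 24 libraries was measured by 3′ RNA sequencing. The authors deposited 1 table of raw read counts per gene and line, and per the submitters' processing notes HISAT2 2.2.1, featureCounts 2.0.1 and limma 3.50.0 were used with hg19/GRCh37; the strand setting is not given in the sources used here. Of 28395 gene identifiers, 27745 matched a RefSeq symbol and 650 did not. Columns were mapped to samples by the descriptions in the labels, and treatments were taken from the titles. The treatment tags of 2 JJN3 CX-5461 libraries carry other final digits in the drug's name than their titles and protocols.

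Each line's 12 libraries were fitted with edgeR 4.0.16 (R 4.3.3): filterByExpr, TMM scaling, glmQLFit with robust settings and glmQLFTest over 4 group means. This tested 12030 genes in MM1.S and 11411 in JJN3. Both tables were joined for the comparisons between lines (12872 genes). P-values were adjusted by the Benjamini-Hochberg method over all genes, with a threshold of 0.05. CPM were computed from all counts of a library. Library totals of 4751893 to 7305069 set the precision, and 3 counts were taken as the floor. Intervals and floors cover counting error only. On simulated data with the MM1.S means, the test recovered 77% of genes changed 1.5-fold and 95% of those changed 2-fold in the comparison of CX-5461 with vehicle (10547 genes). With the JJN3 means it recovered 33% and 86% (10633 genes). Of the genes called, 5.49% with the MM1.S means and 7.75% with the JJN3 means had not been changed. The changed genes were drawn from well-counted ones and the libraries were simulated as independent. Only the CX-5461 libraries carried changes. The recovered shares therefore do not cover genes of low count, paired libraries, or the effects of panobinostat and the combination.

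Replicate numbers come from the labels' titles, which do not say what a number marks. In JJN3 all 18 same-number pairs of libraries from different groups had deviations from their group means that correlated over 0.1 (0.201 to 0.485), against -0.337 to -0.00791 for the 36 pairs of different number. The numbers were therefore taken as pairs in JJN3, and the fit with the number as a block is given beside the counts it moves by over 1.5 times and beside some single members. JJN3 values not marked with the block come from the fit without it, which ignores this pairing. The same holds for the fits with libraries left out.

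Named with values are a fixed panel of catalytic, inducible, activator and assembly genes, and the 3 largest called rises and falls per comparison over an average log2 CPM of 3. Members outside that rule that changed a call under another setting were named after their values were seen. The members and lists were chosen with earlier results of these data known. The alternatives were library size alone, DESeq2 1.42.0, no filter, the replicate block, and leaving out libraries. Some genes of the named lists are not reported here.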

Additional observations from a re-analysis of the deposited data

Results flagged for a closer look

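The effect of panobinostat or of the combination differed between the lines for the members below, by edgeR's test of the difference itself with Benjamini-Hochberg adjustment; each value is the JJN3 log2 fold change minus that of MM1.S, so that a value above 0 marks a member less lowered, or more raised, in JJN3. For panobinostat the core values were 0.67 for PSMA1, 0.88 for PSMA3, 0.64 for PSMA4, 0.86 for PSMA6 and PSMA7, 0.57 for PSMB2, 1.01 for PSMB5 and 0.87 for PSMB6. The immunoproteasome and activator values were 2.30 for PSMB10, 0.64 for PSME1, 0.65 for PSME2 and 0.53 for PSME3. In the cap they were 0.66 for PSMC2, 1.28 for PSMC3, 0.53 for PSMC4, 0.74 for PSMC5, 0.78 for PSMD1, 1.05 for PSMD7, 1.06 for PSMD8, 0.70 for PSMD11, 0.53 for PSMD13 and 0.92 for PSMD14. Assembly genes had 0.76 (PSMG1), 0.68 (PSMG3) and 1.16 (PSMG4). The calls of PSMA4, PSMB2, PSMC4, PSMD1, PSMD13, PSME2 and PSME3 were lost without at least 1 single library, and those of PSMC4 (adjusted p = 0.178), PSMD13 (0.0627), PSME2 (0.0622) and PSME3 (0.0783) also without the JJN3 replicate 2 libraries.

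For the combination the core values were 0.52 for PSMA1, 0.47 for PSMA2, 1.07 for PSMA3, 0.85 for PSMA6, 0.69 for PSMA7, 0.75 for PSMB2 and 0.58 for PSMB5. PSMB10 had 1.03, PSME1 0.52, PSME2 0.52 and PSME3 0.73. Among cap genes the differences were 0.84 for PSMC2, 0.69 for PSMC3, 0.52 for PSMC5, 0.65 for PSMD1, 0.46 for PSMD3, 0.82 for PSMD7, 0.58 for PSMD8, 0.62 for PSMD11, 0.45 for PSMD13 and 1.12 for PSMD14. The assembly genes PSMG1, PSMG3 and PSMG4 differed by 0.69, 0.43 and 0.70. The calls of PSMA1, PSMA2, PSMC3, PSMC5, PSMD1, PSMD3, PSMD11, PSMD13, PSME1, PSME2 and PSMG3 were lost without at least 1 single library. Without the JJN3 replicate 2 libraries those of PSMC5 (adjusted p = 0.0756), PSMD3 (0.134), PSMD8 (0.0829), PSMD13 (0.171), PSME1 (0.0813), PSME2 (0.240) and PSMG3 (0.151) were lost.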

How the results depend on the processing

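No called value changed sign under any alternative run, but medians of the members near 0 did: by library size alone from -0.03 to 0.03 for CX-5461 and from -0.01 to 0.07 for the combination against panobinostat in JJN3, and for additivity in JJN3 from 0.02 to -0.011 with no filter and -0.005 with DESeq2. Leaving out 1 library also turned the sign of such medians. By library size alone MM1.S members called with CX-5461 were 1 higher and 3 lower, against 1544 and 509 of 12030 genes. With panobinostat 2 were higher in MM1.S, against 5027. For the combination against CX-5461 3 were higher in MM1.S, against 4724. In JJN3 2 were higher and 9 lower in that comparison, against 2362 and 1460 of 11411 genes. The medians of the members then moved to -0.61 for panobinostat and -0.56 for the combination in MM1.S, -0.08 for the combination in JJN3 and 0.44 for the panobinostat difference between lines. With the replicate block JJN3 had 1 lower member with CX-5461, 2 higher and 20 lower with panobinostat, and 21 lower with the combination. It had 2 higher and 6 lower for the combination against panobinostat, and 3 higher against CX-5461. The shares of all genes for these counts are given above. The block changed no other JJN3 count by over 1.5 times. With it 28 members had a higher panobinostat effect in JJN3 than in MM1.S, against 2977 of 12872 genes. A higher combination effect was called for 28, against 2970. In MM1.S 6 of 18 same-number pairs correlated over 0.1 (from -0.0474 to 0.290), against 1 of 36 pairs of different number (from -0.290 to 0.146). Some of these libraries may deviate together, but the numbers were not taken as pairs in MM1.S. There the block gave 11 lower with CX-5461, against 1140 of 12030 genes. It gave 2 higher for the combination against CX-5461, against 4433, and 5 above additivity, against 400. With no filter JJN3 had 1 higher member with panobinostat, against 1938 of 18732 genes, and 1 higher with the combination, against 2803. It had 2 lower for the combination against panobinostat, against 272, and 1 below additivity (PSMB10), against 40. A higher CX-5461 effect than in MM1.S was called for 1, against 71 of 21062 genes. DESeq2 gave 1 higher with the JJN3 combination, against 2494 of 14370 genes. It gave 0 with a lower panobinostat effect in JJN3 than in MM1.S, against 2096 of 13707 genes. Without replicate 2 in every JJN3 group 1 member was higher with the combination, against 2399 of 11633 genes.

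Leaving out 1 library at a time gave, in MM1.S, 2 to 6 lower with CX-5461, 1 to 2 higher with panobinostat, 0 to 3 higher for the combination against panobinostat, 1 to 2 higher against CX-5461 and 1 to 5 above additivity. In JJN3 it gave 1 to 2 higher with the combination, 0 to 1 lower against panobinostat, and 1 to 2 higher and 8 to 13 lower against CX-5461. Between the lines, 0 to 1 members (PSMA8, which is near the floor in MM1.S) had a lower panobinostat effect in JJN3 and 15 to 22 a higher combination effect. The cause of these moves was not tested, and fewer libraries enter each such fit. Counts from fits without 1 library are given without a share of all genes, here and above. With 3 libraries per group, changes of 1.5-fold were often missed for CX-5461 against vehicle on data simulated from JJN3. Effects of panobinostat and of the combination were not simulated.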
